A study of Homo sapiens with 6 samples.

Results

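The genes described here are the 10 that make, move, sense and destroy sphingosine-1-phosphate (S1P): the receptors S1PR1, S1PR2, S1PR3, S1PR4 and S1PR5, the kinases SPHK1 and SPHK2, the transporters SPNS2 and MFSD2B, and the lyase SGPL1. They were chosen by symbol because CD69 protein is known to bind and antagonise S1PR1, and each matched 1 of the 61806 gene identifiers in the count table. The table comes from poly(A)-selected RNA of NB4, an established cell line of acute promyelocytic leukaemia. It holds 6 libraries: 3 of cells that stably overexpress CD69 after lentiviral transduction, and 3 of control cells, which the sample labels call wild-type and the design text calls vector controls. All were grown in the same medium without any drug and carry the same batch number. Whether replicates stem from independent transductions is not stated in the sources used here, and the p-values therefore reflect only the spread among these libraries, which may be technical.

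S1P is a signalling lipid made inside cells when a sphingosine kinase phosphorylates sphingosine. It leaves the cell through a transporter, acts on a family of G protein-coupled receptors at the cell surface, and is either dephosphorylated or cleaved irreversibly by the lyase. Leukocytes use S1PR1 to follow S1P out of lymphoid tissue and bone marrow, and CD69 holds them back by bringing about the internalisation of that receptor. Transcript counts do not measure receptor protein or its place in the cell.

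Total counts per library lay between 51543550 and 57463020. Low values piled up at 4 counts in every library, so that 1 fragment may stand for several counts and small counts are less precise than they look. Levels are given as CPM, counts scaled to library size with TMM factors, on which 3 counts correspond to 0.0529 to 0.0588 CPM. CD69 itself held 80.4, 81.9 and 70.6 CPM in control replicates 1, 2 and 3, against 98.3, 99.1 and 95.7 CPM with CD69 overexpression, or 0.33 higher on the log2 scale (SE 0.07; adjusted p = 0.0153 by the quasi-likelihood test of edgeR), and this call was lost without overexpressing replicate 2 (adjusted p = 0.0618). Of the promyelocyte markers, the granule protease gene CTSG held 562 to 775 CPM and the surface marker CD33 45.0 to 57.8 CPM, whereas myeloperoxidase, MPO, held only 0.518 to 1.45 CPM.

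Among the 5 receptors, S1PR4 and S1PR3 were the abundant transcripts, S1PR2 was present at a low level, and S1PR1 and S1PR5 stayed under 1 CPM in every library. No receptor passed the test between the groups. Of all 10 genes, SPHK1 and SPNS2 were lower in the overexpressing cells and none was higher (edgeR, adjusted p under 0.05). That is 20% of the 10 genes, against 24.1% of the 19485 genes tested (9.94% lower and 14.2% higher), so S1P genes were not called more often than the background. Without adjustment 3 fell and 0 rose at p under 0.05 (edgeR). The share of all genes at that threshold was not counted, but it cannot be below the 24.1% called after adjustment. DESeq2 and limma-voom each called 2 lower and 0 higher. Of all 19485 genes, DESeq2 called 2720 lower and 3177 higher, and limma-voom 2041 lower and 2804 higher. The median log2 fold change of the 10 genes was -0.31, against 0.01 over all genes tested. It lay between the values of S1PR2 (-0.36) and S1PR4 (-0.26), neither of them called. The 10 values ran from -1.24 for S1PR5 to 1.38 for MFSD2B, both at few counts, and a shift of the set was not tested. All 10 passed the filter on low counts. The count of lower genes was 1 without control replicate 2 or without overexpressing replicate 2, and 3 without overexpressing replicate 3.

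**Figure D1:**
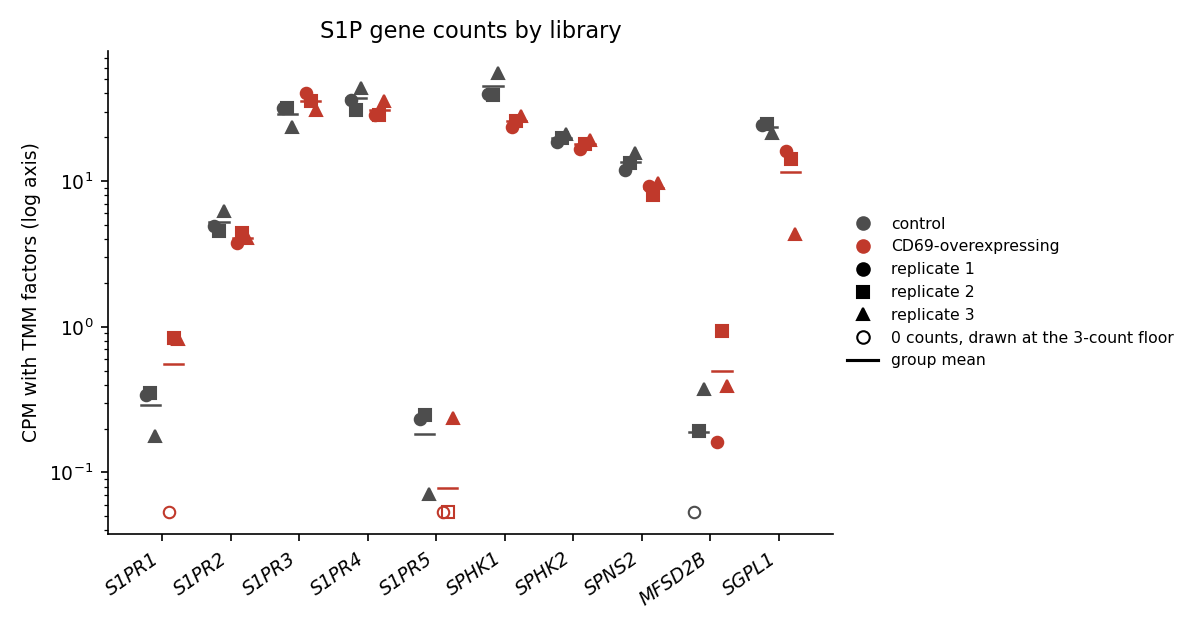
Level of each S1P gene in each library, in CPM with TMM factors on a log axis. Points are libraries (grey, control; red, CD69-overexpressing; the shape gives the replicate number), lines are group means, and open symbols are libraries with 0 counts, drawn at the level of 3 counts. S1PR3, S1PR4 and SPHK1 reached over 20 CPM in every library, while S1PR1, S1PR5 and MFSD2B lay under 1 CPM.

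S1PR4 (ENSG00000125910; GRCh38 chromosome 19, 3172346 to 3180332, plus strand), a receptor found mainly on blood cells, was the leading receptor once levels were divided by gene length. It held 36.2, 30.9 and 43.8 CPM in control replicates 1, 2 and 3, against 28.5, 28.6 and 35.5 CPM with CD69 overexpression. The groups overlapped, with control replicate 3 highest, and the log2 fold change of -0.26 was not called (95% interval -0.60 to 0.08; edgeR adjusted p = 0.243). Per kilobase of exon its level was 22.2 ± 3.88 CPM for control and 18.6 ± 2.40 CPM for CD69-overexpressing libraries (SD, n = 3). This was 85.7% and 82.8% of the summed level per kilobase of the 5 receptors. With the length of the longest coding transcript in place of all exons, the shares were 82.4% and 78.2%.

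S1PR3 (ENSG00000213694; chromosome 9, 88990863 to 89005010, plus strand), a receptor widely expressed outside the blood, held 31.7, 31.9 and 23.5 CPM in control replicates 1, 2 and 3, against 40.0, 35.4 and 30.6 CPM with CD69 overexpression. The 2 groups overlapped at 30.6 to 31.9 CPM. Its log2 fold change was 0.28 (95% interval -0.06 to 0.62; edgeR adjusted p = 0.211). Its counts were close to those of S1PR4, but its exons are longer, and per kilobase it held 2.14 ± 0.352 CPM for control and 2.60 ± 0.346 CPM for CD69-overexpressing libraries (SD, n = 3). No library of S1PR3 came near the lowest S1PR4 library per kilobase, which was 17.1 CPM.

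S1PR2 (ENSG00000267534; chromosome 19, 10221433 to 10231331, minus strand), the receptor that couples to the G proteins that restrain migration, held 4.94, 4.53 and 6.19 CPM in control replicates 1, 2 and 3, against 3.75, 4.42 and 4.05 CPM with CD69 overexpression. Every overexpressing library lay below every control. The groups did not overlap in 4 of the 10 S1P genes, against 42.3% of all genes tested. The log2 fold change of -0.36 was not called (95% interval -0.78 to 0.07; edgeR adjusted p = 0.201). Of its exon bases, 2.28% are shared with DNMT1 on the same strand. In the controls S1PR2 was below S1PR3 per kilobase without overlap of the libraries, at 1.43 ± 0.237 CPM (SD, n = 3).

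S1PR1 (ENSG00000170989; chromosome 1, 101236865 to 101243713, plus strand), the receptor that CD69 binds, was barely detected. It had 19, 20 and 10 counts in control replicates 1, 2 and 3, against 0, 47 and 42 with CD69 overexpression. In CPM these were 0.339, 0.353 and 0.178 against 0, 0.834 and 0.823. The libraries of the overexpressing group thus lay on both sides of all controls. The log2 fold change was 0.92 with a 95% interval of -1.60 to 3.44 (edgeR adjusted p = 0.588), and it was -0.69 with limma-voom and 1.5 without overexpressing replicate 1 (adjusted p = 0.0601). No change in S1PR1 transcripts in either direction was detectable in these libraries, and the interval is wide enough to hold a change of several fold.

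Markers of B cells, which carry S1PR1, shared its high levels in overexpressing replicates 2 and 3, but not its 0 in replicate 1. The summed level of 8 B cell markers was 23.3, 19.3 and 17.6 CPM in control replicates 1, 2 and 3, against 24.2, 101 and 98.0 CPM with CD69 overexpression. Each of the 8 markers, like S1PR1, reached its top levels in overexpressing replicates 2 and 3, above the other 4 libraries. The edgeR test called 4 of the 8 higher, DESeq2 6 and limma-voom 2, against 14.2% of all genes tested called higher by edgeR. CD79B, part of the B cell receptor, held 0.642 to 1.005 CPM among controls and 0.50 CPM in overexpressing replicate 1, but 12.9 and 14.4 CPM in the other two. The part of these transcripts in the S1PR1 values was not tested. In libraries of bulk cells, a few cells with much of a transcript and many cells with little cannot be told apart. Markers of endothelium, where S1PR1 is also abundant, summed to 4.0 to 4.75 CPM in overexpressing replicates 1 and 2 and 2.53 CPM in replicate 3, against 5.00 to 7.73 CPM in the controls, most of it from ESAM.

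**Figure D2:**
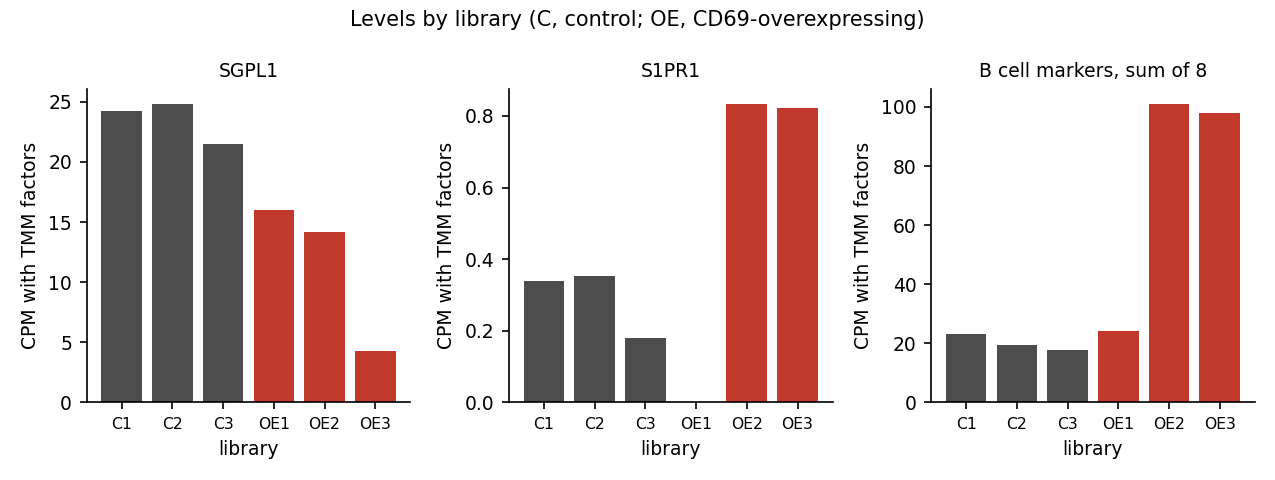
Levels of SGPL1, S1PR1 and the sum of 8 B cell markers in each library (bars, CPM with TMM factors; grey C1 to C3, control replicates; red OE1 to OE3, CD69-overexpressing replicates). SGPL1 is lowest in OE3 at 4.31 CPM, and S1PR1 and the B cell markers are highest in OE2 and OE3.

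S1PR5 (ENSG00000180739; chromosome 19, 10512742 to 10517931, minus strand), the receptor of natural killer cells and oligodendrocytes, had 13, 14 and 4 counts in control replicates 1, 2 and 3, against 0, 0 and 12 with CD69 overexpression. A count of 0 allows up to 3 counts, or 0.0535 and 0.0532 CPM in overexpressing replicates 1 and 2, for counting error only and if each count is 1 fragment. Where a fragment stands for several counts, the limit is higher by the same factor and can reach the control values. The fitted log2 fold change of -1.24 had an interval of -4.35 to 1.86 (edgeR adjusted p = 0.548). Of 8 T and natural killer cell markers, CD3E, CD3G and PRF1 were at 0 in every library. The summed level of all 8, 54.6 to 119 CPM, came almost entirely from NKG7, which held 53.2 to 119 CPM and rose, while CD2, at 0.910 to 1.18 CPM in the controls and 0 to 0.142 CPM with CD69 overexpression, fell. Their part in the S1PR5 values was not tested.

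The order of the receptors by level per kilobase was S1PR4, S1PR3 and S1PR2, each apart from the next in the controls, followed by S1PR5 and S1PR1, whose libraries overlapped in both groups. S1PR1 came before S1PR5 in the overexpressing cells, and in the controls by the longest coding transcript. S1PR4 also stood above the most abundant kinase, SPHK1, per kilobase of exon in both groups, although the 2 genes overlapped in the controls when the longest coding transcript was used as the length. None of the 5 receptors was called by DESeq2 or limma-voom, and 0 had an unadjusted p under 0.05.

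**Figure D3:**
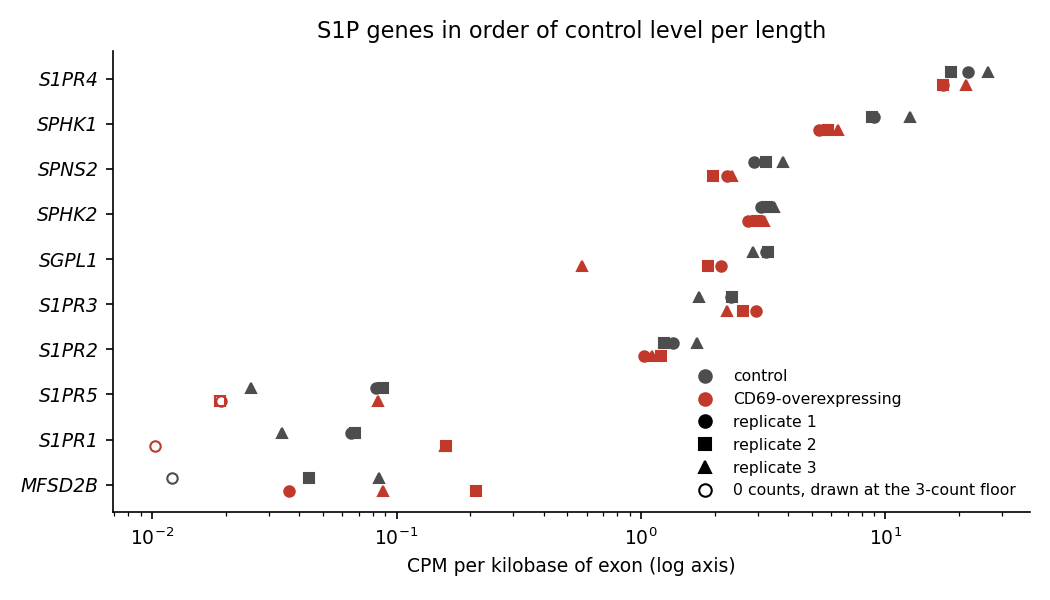
S1P genes ordered by their control level per length, as CPM per kilobase of exon on a log axis. Points are libraries (grey, control; red, CD69-overexpressing; open, 0 counts drawn at the level of 3 counts). S1PR4 leads at 17.1 to 26.3, and the receptors S1PR1 and S1PR5 lie with MFSD2B at the bottom.

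The sequence before the RefSeq start of the leading receptor and of the receptor that CD69 binds is shown because KLF2, a zinc finger factor known to drive S1PR1 in lymphocytes, binds CACCC-type motifs. Sequences are from the RefSeq promoter table (GRCh38.p14), which held 9 of the 10 genes, and each stretch stops before the next annotated exon. RefSeq starts differ from those of the annotation that gave the gene positions, so the S1PR4 and SPHK1 stretches lie inside the positions printed for these genes. Capitals mark CACCC on either strand, read as GGGTG on the opposite one. SPHK1, the gene with the firmest change, is added with the 1 of its 3 listed starts whose 250 bases hold no annotated exon.
S1PR4, chr19:3178519-3178767, plus strand: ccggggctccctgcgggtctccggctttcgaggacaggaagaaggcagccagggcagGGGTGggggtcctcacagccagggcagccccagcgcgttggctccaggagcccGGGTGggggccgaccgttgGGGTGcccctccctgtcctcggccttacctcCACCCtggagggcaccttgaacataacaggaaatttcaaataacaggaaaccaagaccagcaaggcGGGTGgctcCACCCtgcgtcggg
S1PR1, chr1:101236769-101236864, plus strand: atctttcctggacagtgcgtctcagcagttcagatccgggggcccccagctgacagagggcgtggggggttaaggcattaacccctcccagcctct
SPHK1, chr17:76384359-76384608, plus strand: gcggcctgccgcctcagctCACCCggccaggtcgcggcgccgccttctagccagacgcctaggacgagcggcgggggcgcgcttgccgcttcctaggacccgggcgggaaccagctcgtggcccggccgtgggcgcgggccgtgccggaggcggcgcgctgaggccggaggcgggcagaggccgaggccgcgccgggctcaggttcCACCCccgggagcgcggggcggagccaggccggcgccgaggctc
The stretch of S1PR4 held 6 matches, that of S1PR1 0 in its 96 bases and 2 in the whole window of 250 bases, and that of SPHK1 held 2. Only exact matches were counted, so 0 does not mean that related motifs are absent. At least 1 match occurred in 54.7% of 35116 promoter windows of 250 bases, so these matches describe the sequences only. KLF2 itself held 0.857, 1.13 and 0.981 CPM in control replicates 1, 2 and 3, against 0.821, 0.337 and 0.235 CPM with CD69 overexpression. Its log2 fold change of -1.08 was not called (SE 0.49; edgeR adjusted p = 0.152).

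SPHK1 (ENSG00000176170; chromosome 17, 76376584 to 76387860, plus strand), the mainly cytosolic kinase that feeds S1P for export, fell in the overexpressing cells. It held 39.5, 39.0 and 55.4 CPM in control replicates 1, 2 and 3, against 23.7, 25.7 and 28.1 CPM with CD69 overexpression. All 3 overexpressing libraries lay below all 3 controls, and control replicate 3 stood above the other controls. The mean was 44.6 ± 9.36 CPM against 25.8 ± 2.23 CPM (SD, n = 3), or 1.73-fold lower, with a log2 fold change of -0.79 (SE 0.15; 95% interval -1.13 to -0.44; edgeR adjusted p = 0.00748). The call held under all 15 alternatives (adjusted p from 8.39e-06 to 0.0368), and without control replicate 3 the change was -0.60. Promyelocyte markers also differed between the groups: ELANE, PRTN3 and AZU1 rose, whereas CTSG (log2 fold change 0.19), CD33 (0.23) and MPO (-0.56) were not called. The 6 markers summed to 994 to 1248 CPM among controls against 2006 to 2411 CPM with CD69 overexpression, a difference carried mostly by ELANE and PRTN3. Their part in the SPHK1 values was not tested. Exons of PRPSAP1 on the opposite strand cover 1.34% of its exon bases.

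SPHK2 (ENSG00000063176; chromosome 19, 48619291 to 48630717, plus strand), the isoenzyme found largely in the nucleus and mitochondria, held 18.6, 19.7 and 21.1 CPM in control replicates 1, 2 and 3, against 16.5, 18.0 and 19.1 CPM with CD69 overexpression. The groups overlapped, and the log2 fold change of -0.15 was not called (95% interval -0.38 to 0.08; edgeR adjusted p = 0.323). Genes on the opposite strand, RPL18 and DBP among them, cover 26.4% of its exon bases, so part of its counts is uncertain. Within each library, SPHK1 counts exceeded SPHK2 counts by a log2 ratio of 1.08, 0.98 and 1.39 in control replicates 1, 2 and 3, against 0.52, 0.51 and 0.56 with CD69 overexpression. The difference between the groups was -0.62, and the groups did not overlap. A two-sided exact permutation test gave p = 0.1, the smallest that 3 against 3 libraries allow.

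**Figure D4:**
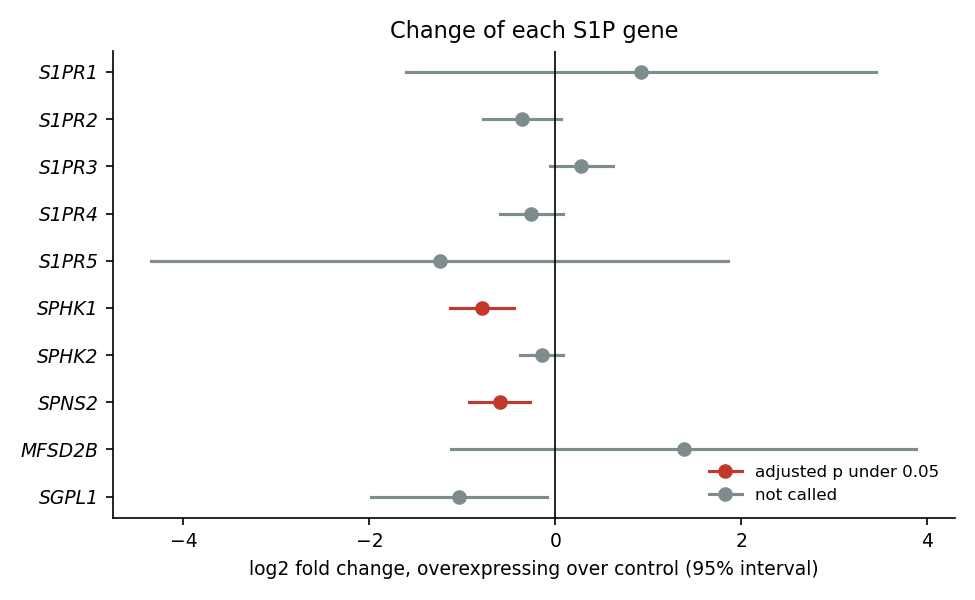
Log2 fold change of each S1P gene, overexpressing over control, with its 95% interval from the edgeR quasi-likelihood fit (red, adjusted p under 0.05; grey, not called). SPHK1 and SPNS2 are the 2 called genes, and the intervals of S1PR1, S1PR5 and MFSD2B are the widest.

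SPNS2 (ENSG00000183018; chromosome 17, 4498838 to 4539035, plus strand), the spinster family transporter that exports S1P from endothelium, also fell. It held 12.0, 13.3 and 15.6 CPM in control replicates 1, 2 and 3, against 9.25, 8.07 and 9.70 CPM with CD69 overexpression, with no overlap. The mean went from 13.6 ± 1.84 to 9.004 ± 0.839 CPM (SD, n = 3), 1.51-fold lower, with a log2 fold change of -0.60 (SE 0.14; edgeR adjusted p = 0.0191). The call was lost without control replicate 2 (adjusted p = 0.0585) and without overexpressing replicate 2 (adjusted p = 0.0780), where the changes were -0.63 and -0.53, and the adjusted p ranged from 0.000980 to 0.0780 over 15 alternatives. Exons of MYBBP1A on the opposite strand cover 3.38% of its exon bases. Of the 6 endothelial markers given above, 3 were tested. ESAM fell by 0.99 on the log2 scale, and CDH5 (log2 fold change -0.86) and CLDN5 (0.29) were not called. TEK and VWF, not tested, were higher in overexpressing replicate 2 than in any control. Their part in the SPNS2 values was not tested.

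MFSD2B (ENSG00000205639; chromosome 2, 24010081 to 24063321, plus strand), the S1P exporter of red cells and platelets, had 0, 11 and 21 counts in control replicates 1, 2 and 3, against 9, 53 and 20 with CD69 overexpression. The groups overlapped, and its log2 fold change of 1.38 had an interval of -1.12 to 3.88 (edgeR adjusted p = 0.401). Among 9 erythroid and platelet markers, ALAS2 and GP9 were at 0 in every library. The 9 together summed to 0.946 to 1.96 CPM in the controls and 0.274 to 0.834 CPM in the overexpressing cells. Exons of FKBP1B on the same strand cover 10.5% of the exon bases of MFSD2B.

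SGPL1 (ENSG00000166224; chromosome 10, 70815961 to 70881173, plus strand) encodes the lyase of the endoplasmic reticulum that ends the pathway by cleaving S1P. It held 24.3, 24.8 and 21.5 CPM in control replicates 1, 2 and 3, against 16.0, 14.1 and 4.31 CPM with CD69 overexpression. All overexpressing libraries lay below all controls, but replicate 3 was 3.28 times below the lower of the other 2. The mean went from 23.5 ± 1.78 to 11.5 ± 6.27 CPM (SD, n = 3). The log2 fold change of -1.03 was not called (SE 0.41; 95% interval -1.98 to -0.09; edgeR unadjusted p = 0.0355, adjusted p = 0.107). Without overexpressing replicate 3 the change was smaller, -0.64, and it passed the test (adjusted p = 0.0133). No exon of another gene overlaps SGPL1 in the annotation used.

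SPHK1 exceeded SGPL1 by a log2 ratio of counts of 0.70, 0.65 and 1.37 in control replicates 1, 2 and 3, against 0.57, 0.86 and 2.70 with CD69 overexpression. The mean difference of 0.47 (exact permutation p = 0.7, two-sided) rested on overexpressing replicate 3, and it was -0.19 without it. The balance of kinase and lyase transcripts was therefore not shown to differ between the groups.

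Of the genes with at least 5 CPM on average, those whose centred log2 levels over the 6 libraries lay closest to SPHK1 were LY86, SPNS3 and SURF2, at root-mean-square distances of 0.0519, 0.0596 and 0.0610, against a median distance of 0.445 over 10993 genes. LY86 encodes a partner of an innate immune receptor, and SPNS3 is a spinster paralogue of SPNS2. Among the genes close to SPNS2 were the ribosome processing gene RRP7A and the nuclear import gene IPO4, at 0.0493 and 0.0496, against a median of 0.345. All were picked for their small distances, so that they lie below the median follows from the selection.

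Beyond these 10 genes, 65 genes of sphingolipid metabolism and of receptor coupling were examined, of which 61 passed the filter. The test called 9 higher and 9 lower, together 29.5% against the background of 24.1%, and 43 did not pass. Their median log2 fold change was -0.08. The count of higher genes was 5 without control replicate 2.

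On the way to S1P, the ceramidase gene ASAH1, whose lysosomal enzyme releases sphingosine from ceramide, rose from 254 ± 12.8 to 320 ± 4.74 CPM (SD, n = 3), 0.33 on the log2 scale (SE 0.06). It was 1 of 4 ceramidase genes tested, and the other 3 were not called. Among 16 tested genes of ceramide synthesis 4 rose and 1 fell, against 14.2% higher and 9.94% lower over all genes tested. SPTLC2, a catalytic subunit of serine palmitoyltransferase, fell from 185 ± 12.5 to 109 ± 8.11 CPM (log2 fold change -0.76, SE 0.08; edgeR adjusted p = 0.000580). SPTSSA, a small subunit of the same enzyme, rose from 36.1 ± 2.39 to 48.5 ± 4.68 CPM, a call lost without control replicate 2 (adjusted p = 0.0677). The ceramide synthase gene CERS1 had 11, 16 and 0 counts in control replicates 1, 2 and 3, against 123, 88 and 88 with CD69 overexpression. It shares 67.1% of its exon bases with GDF1 on the same strand, and its call was lost without control replicate 1 (adjusted p = 0.0625).

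Downstream, ALDH3A2, the dehydrogenase that oxidises the fatty aldehyde left when SGPL1 cleaves S1P, rose, with 4.40 ± 0.814 CPM in control and 12.7 ± 0.550 CPM in overexpressing libraries (SD, n = 3; log2 fold change 1.53, SE 0.17; edgeR adjusted p = 0.000631). It was the only one of 6 phosphatase and aldehyde genes to be called by edgeR, or 16.7% against 24.1% of all genes tested. DESeq2 and limma-voom each called 1 of the 6 higher and 1 lower. PLPP3 had a log2 fold change of -0.86 without overlap of the groups, but edgeR did not call it (adjusted p = 0.0644). Among 10 tested genes of sphingomyelin and ceramide use, 1 rose and 4 fell, against the same background of 14.2% and 9.94%. Acid sphingomyelinase, SMPD1, rose by 0.56 (SE 0.10), and SMPD2, a neutral sphingomyelinase, fell by 0.86 on the log2 scale (SE 0.16), though PPIL6 on the opposite strand covers 20.3% of its exon bases. Ceramide kinase, CERK, fell by 0.33 (SE 0.08), and its call was lost without overexpressing replicate 1, 2 or 3 (adjusted p = 0.0751, 0.0560 and 0.0528).

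The paralogue SPNS3, which lies beside SPNS2 on chromosome 17 (4433688 to 4488208), dropped, with 50.9 ± 7.71 CPM in control and 29.05 ± 2.53 CPM in overexpressing libraries (SD, n = 3; log2 fold change -0.81, SE 0.12; edgeR adjusted p = 0.00268). The third paralogue, SPNS1, a lysosomal lysophospholipid transporter, rose by 0.35 (SE 0.09). That call was lost without control replicate 1 or 2 or without overexpressing replicate 2 or 3 (adjusted p = 0.0949, 0.116, 0.0912 and 0.0709), and 70.2% of its exon bases overlap other genes. The S1P carrier APOM and the exporter ABCC1 were not called.

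Of 15 genes of receptor coupling and internalisation, 1 rose and 3 fell, together 26.7%, which is near the 24.1% of all genes tested. GRK2, a kinase that marks activated receptors for internalisation, rose from 567 ± 38.8 to 763 ± 12.1 CPM, while its relative GRK3 fell from 66.5 ± 7.17 to 46.1 ± 1.44 CPM (SD, n = 3). The arrestin gene ARRB2 fell from 213 ± 15.0 to 151 ± 4.25 CPM, and ARRB1 held 122 ± 1.72 and 133 ± 8.66 CPM and was not called. The G protein genes GNAI2, GNA12 and GNA13, which couple to S1P receptors, were not called by edgeR. Of the 15 genes, DESeq2 called 2 higher and 4 lower, and limma-voom 1 higher and 3 lower. Neither KLF2 nor FOXO1, both regulators of S1PR1, was called, with 0 at an unadjusted p under 0.05 and 0 by DESeq2 and limma-voom. The 4 tested receptors for the related lipid lysophosphatidic acid were not called either. Of these 1, LPAR4, had an unadjusted p under 0.05, and DESeq2 and limma-voom called 0.

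**Figure D5:**
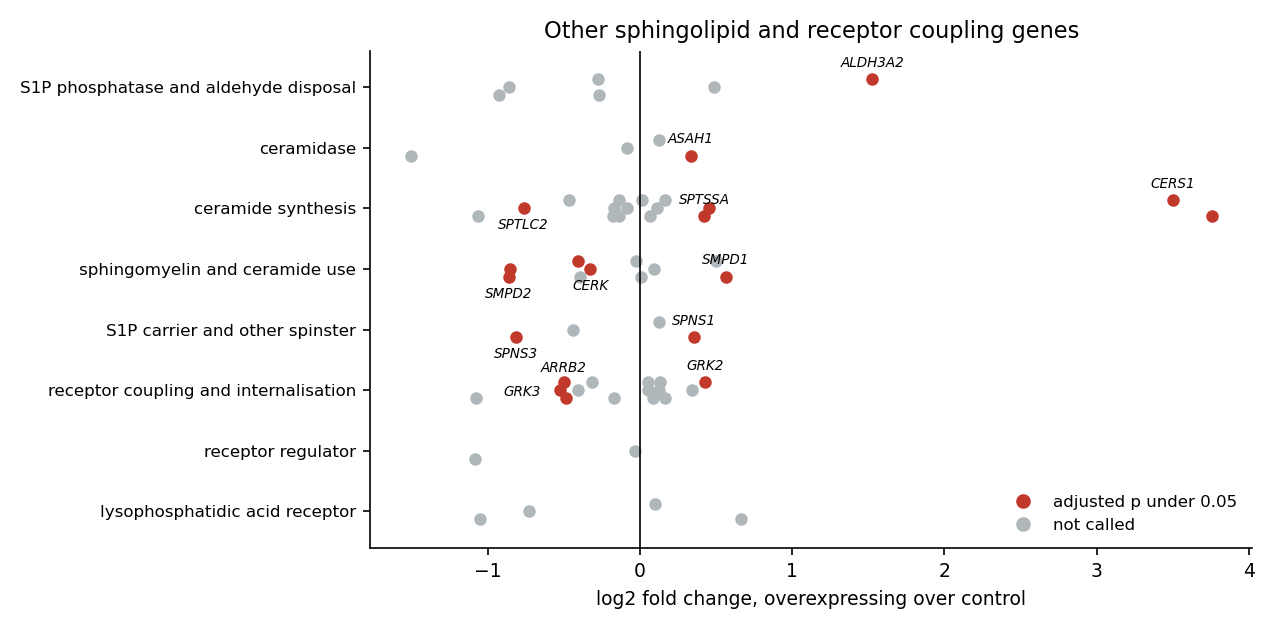
Log2 fold change, overexpressing over control, of the 61 tested genes of sphingolipid metabolism and receptor coupling, grouped by role (red, adjusted p under 0.05 in the edgeR test; grey, not called). The 18 called genes fall on both sides of 0, with 9 higher and 9 lower.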

How the data were processed

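The authors deposited 1 table of whole-number counts per gene and library, treated here as estimated counts because low values pile up at multiples of 4. FastQC, fastp, STAR and featureCounts (Subread) were used with GRCh38 (hg38), per the submitters' processing notes. The sources used here give no versions, annotation release, strand setting or counting unit. Within each group every pair of libraries differed by more than counting noise (chi-square over its degrees of freedom 2.36 to 14.1, with counts divided by 4). The value was lowest for control replicates 1 and 2, at 2.36. Control replicate 3 stood furthest off, at 14.1 and 13.0 against control replicates 1 and 2. Pairs of overexpressing libraries lay at 4.49 to 9.04.

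Genes were filtered with filterByExpr, scaled by TMM and tested over all 19485 genes with edgeR 4.0.16 (glmQLFit, glmQLFTest; R 4.3.3), two-sided. Adjusted p-values are by Benjamini-Hochberg, with a threshold of 0.05. SE is the log2 fold change divided by the root of F. Locations, exon lengths and overlaps are from GENCODE 29 on GRCh38. Ratios within libraries used a pseudocount of 1 and exact permutation tests (scipy 1.17.1). The test was checked on simulated counts.

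The members, lists and tests were chosen with earlier results of these data known. Named were all 10 genes, CD69, up to 3 called genes of each role by smallest p, and the 3 genes nearest in profile to each called member. Some items that this rule or the marker lists hold are not reported here. KLF2, FOXO1, ARRB1, LPAR4, APOM, ABCC1, GNAI2, GNA12, GNA13 and the markers were named after their values were seen. Alternatives were RLE, upper-quartile or no factors, no filter, at least 50 counts in 3 libraries, DESeq2 1.42.0, limma-voom (limma 3.58.1), counts divided by 4, a replicate block and each library left out. Figures used matplotlib 3.10.9.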

Additional observations from a re-analysis of the deposited data

How the results depend on the processing

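Under the 9 alternatives that kept all 6 libraries, the 10 S1P genes had 2 lower and 0 higher in 8, and 4 lower and 1 higher with the replicate number as a block. With that replicate block S1PR3 was called higher (adjusted p = 0.0344) and S1PR4 (0.0493) and SGPL1 (0.0439) lower. Equal sample numbers were not shown to pair all the libraries. Their deviations from the group means correlated at 0.01, 0.08 and 0.23, and 2 of 6 libraries correlated best with their own number. These 2 were replicate 3 of each group. Control replicate 3 correlated at -0.08 and -0.16 with overexpressing replicates 1 and 2, and overexpressing replicate 3 at -0.13 and -0.17 with control replicates 1 and 2. Deviations from a group mean cancel within the group, so a positive correlation brings negative ones with it. The negative values are therefore not separate evidence of pairing. What the libraries numbered 3 have in common was not tested. Leaving out 1 library gave 1 to 3 lower and 0 to 0 higher S1P genes, and 5 to 10 higher and 6 to 13 lower genes of the wider list. The difference in the SPHK1 to SPHK2 ratio ranged from -0.71 to -0.50 and that of SPHK1 to SGPL1 from -0.19 to 0.88, the lowest without overexpressing replicate 3. The latter ratio is thus reversed by 1 library. S1PR1 changed sign with limma-voom (-0.69), and the cause was not tested. S1PR1, S1PR5 and MFSD2B did not pass a filter of 50 counts in 3 libraries or with counts divided by 4, which gave no value. These 3 genes rest on 0 to 53 counts per library, and whether depth or the spread between libraries sets their wide intervals was not tested.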

Other observations

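The low SGPL1 level of overexpressing replicate 3 had no drop of like size beside it in PCBD1 or ADAMTS14, the neighbours with enough counts to be tested. Of the coding genes that start within 250 kb, PCBD1 held 20.4, 23.9 and 25.6 CPM in overexpressing replicates 1, 2 and 3 and 22.9 to 27.0 CPM in the controls. ADAMTS14, a procollagen protease gene on the other side, held 0.411 to 0.564 CPM among controls, against 6.53, 5.11 and 4.74 CPM with CD69 overexpression (log2 fold change 3.54, SE 0.25; edgeR adjusted p = 8.6e-05). PRF1 was at 0, and TBATA held at most 0.0892 CPM, too low for either to be compared. Among 10994 genes of at least 5 CPM, 11, with SGPL1 itself counted, were at least as far below their group in overexpressing replicate 3. In the other libraries 4 to 26 genes were as far below theirs. These values were looked at after the SGPL1 level was seen.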
